A study of Rattus norvegicus with 42 samples.

Results

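The animals described here are rat pups given phenobarbital (PB) or saline vehicle (VEH) that carry the numbers 7 to 14 in their treatment group, those whose sample codes have a single letter. They comprise 8 PB and 7 VEH animals, 15 of the 42 libraries of the series. VEH animal 7 is marked as excluded in its label and was left out. The study asked how early exposure to antiseizure medicines alters gene expression in the developing hippocampus. Male Sprague Dawley pups received 1 intraperitoneal injection on postnatal day 7, and the hippocampus was taken 72 hours later for RNA sequencing, with 1 library per animal. PB was given at 75 mg/kg. The 8 levetiracetam (LEV) animals of the same code series, at 200 mg/kg, are given only as values beside the others. All groups share the strain, sex, ages and route of injection. No genotype, lesion or seizure was part of the design, so that PB was studied in healthy pups. The animals came in 2 orders with 1 pup per litter and treatment. The labels tie no animal to a litter or to an order.

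PB is an older antiseizure drug that prolongs the opening of GABA-A receptors, the chloride channels through which the transmitter GABA inhibits neurons. In the second postnatal week of the rat, the hippocampus still makes granule cells and glia from dividing progenitors, its oligodendrocyte precursors begin to mature toward myelin-forming cells, and its inhibitory interneurons, among them the parvalbumin cells, gain their adult markers and synapses. Bulk RNA from the tissue adds up all of these cells, so that fewer cells of a type and less RNA per cell cannot be told apart.

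The reads assigned to transcripts amounted to 9586785 to 11116801 per PB library and 9499494 to 11911877 per VEH library, and these totals differed by less than the spread between animals (exact permutation test, two-sided, p = 0.319). Markers of hippocampal subfields were present in every library. They summed to 23978 to 27662 normalized counts in PB, 27952 to 33598 in VEH and 25306 to 31044 in LEV animals. Every PB animal summed lower than every VEH animal. Hpca alone made up 5776 to 8469 of the sum in PB and 8643 to 13328 in VEH animals, and the 21 transcripts of the list had a median log2 difference of -0.04, with 8 of them higher. Choroid plexus, which borders the hippocampus, was present to very different degrees in both groups. Its defining transcript Ttr ran from 26.7 to 60600 (median 7180) normalized counts in PB and from 12.5 to 40200 (median 103) in VEH animals. The ranges overlapped, but the median was much higher in PB animals. Choroid plexus genes led the first principal component (22.2% of the variance). None of the first 3 components separated PB from VEH after adjustment, the second coming nearest (exact permutation test, p = 0.0193, adjusted over 3 p = 0.0578), and passing without any 1 of VEH 9, VEH 10, PB 7 and PB 13. Of skeletal muscle transcripts, Ckm was at 0 in all 15 animals and Myh4 did not exceed 10.6 normalized counts. Acta1 was at 59.4 to 126 in PB and 101 to 134 in VEH animals. The 26 genes of the muscle list summed to 726 to 978 in PB and 723 to 858 in VEH animals. Ribosomal RNA, by contrast, tended to be lower in the PB than in the VEH animals of this set. It took 0.78% to 1.62% of the counts in PB animals, 1.44% to 2.45% in VEH animals, 0.71% to 1.74% in LEV animals and 6.5% in the VEH animal left out. The comparison was therefore repeated without these transcripts in the counts and with their share in the model. As the share went largely with the treatment, that model cannot tell the 2 apart. The share itself passed the adjusted limit for 2 transcripts.

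Of 12837 transcripts tested with edgeR's quasi-likelihood test, 107 passed an adjusted p of 0.05 with a log2 difference of at least 0.32 in either direction (the fold limit) and are called changed here. This is 0.834% of all tested, with 70 higher after PB (0.545%) and 37 lower (0.288%). The changes were small. The median called transcript changed 1.38-fold and the largest 2.27-fold, Pvalb and LOC257642 falling and Cd68 rising by more than 2-fold. In 28 of the 107 the PB and VEH animals did not overlap, as was so for 0.865% of all tested transcripts. Without the fold limit 319 transcripts passed, 151 higher and 168 lower, and 2408 had an unadjusted p under 0.05. The number of calls rested on single animals. It was 35 without VEH animal 11, 33 without VEH 13, 71 without VEH 12, 47 without PB 7, 59 without PB 9, 34 without PB 10 and 37 without PB 11. It was 1 with the excluded VEH animal 7 kept (Slc7a10), and 1 when the ribosomal RNA share of each library entered the model (Vegfa NR_105011, not among the 107). With the ribosomal RNA transcripts left out of the counts it was 103. The Y-linked genes of VEH 7 summed to 339.8 normalized counts, against at least 1367 in the other animals 7 to 14, although all are labelled male. With the ribosomal RNA share in the model the log2 difference was 0.64 ± 0.14 (SE, adjusted p = 0.204) for Plxnb3 and -0.44 ± 0.073 (adjusted p = 0.0609) for Atp6v1g2. It was 0.54 ± 0.12 (adjusted p = 0.204) for Mki67 and -1.14 ± 0.37 (adjusted p = 0.303) for Pvalb. Of the 107, 25 stayed called whichever of the 15 animals was left out, 11 higher and 14 lower. Among these 25 were Plxnb3, Myrf, Gfap, Mki67, Pvalb and Slc7a10. By contrast, Enpp6 and Vim stayed called in 5 of the 15 omissions and Tfrc in 3.

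**Figure D1:**
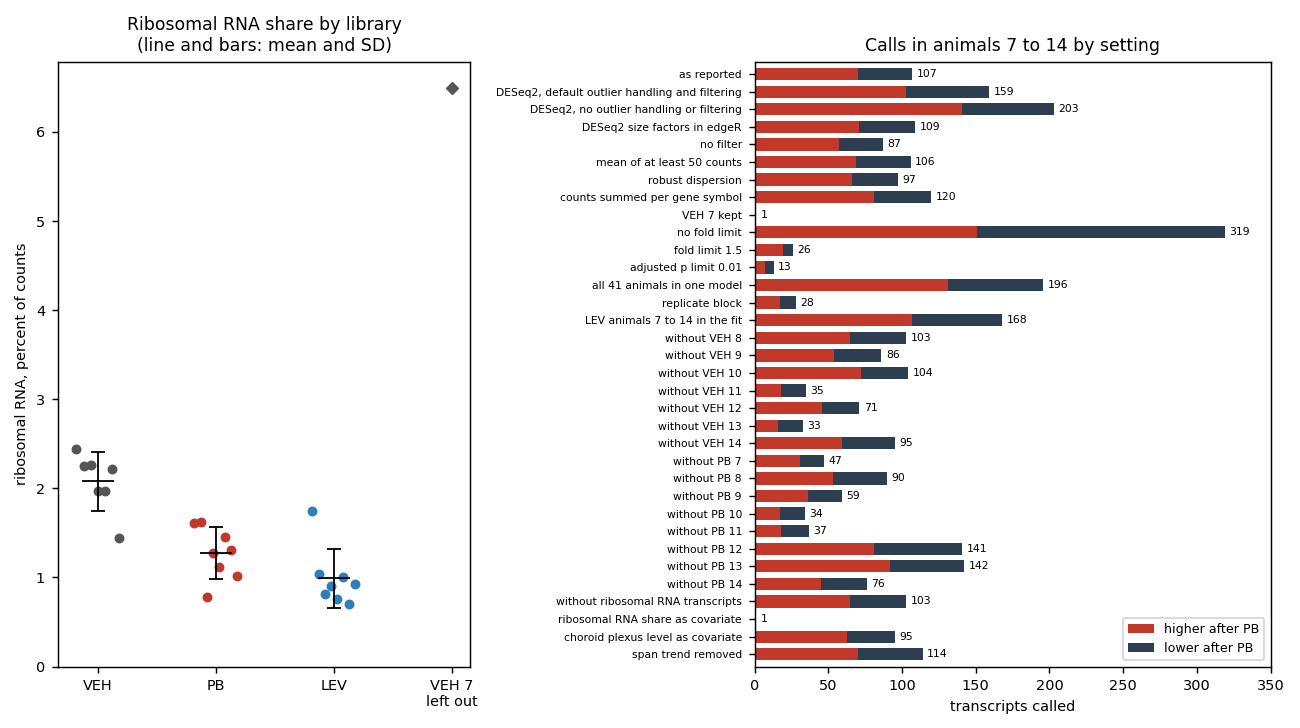
Left, ribosomal RNA as a percent of counts, with 1 point per library and lines for the mean and SD of each group of animals 7 to 14. Right, the number of transcripts called between PB and VEH under each setting, with those higher after PB in red and those lower in dark blue. The as-reported fit gives 107 calls, and keeping VEH animal 7 or adding the ribosomal RNA share leaves 1.

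The transcript with the smallest p belonged to the oligodendrocyte lineage. Plxnb3 encodes plexin-B3, a semaphorin receptor. Its level was 379 to 598 (median 497) normalized counts in PB animals and 236 to 348 (median 308) in VEH animals. Every PB animal lay above every VEH animal, with a log2 difference of 0.74 ± 0.092 (adjusted p = 0.00254). The Plxnb3 row spans chromosome X 157015297 to 157028435 of rn6. Myrf, the transcription factor that switches on the myelin programme, rose from a median of 549 (479 to 628) in VEH to a median of 717 (653 to 830.0) in PB animals. These groups did not overlap either, and the log2 difference was 0.41 ± 0.064 (adjusted p = 0.00493). Enpp6, a choline phosphodiesterase that marks newly forming oligodendrocytes, rose by 0.79 ± 0.19 (adjusted p = 0.0405) on the log2 scale. Its range of 43.1 to 108 (median 62.98) in PB overlapped that of 26.9 to 51.2 (median 39.7) in VEH animals.

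Around these 3, the list of forming oligodendrocytes leaned the same way. Of its 14 transcripts tested, 1 (Enpp6) was called and 10 had an unadjusted p under 0.05, all higher after PB, against 9.22% of all tested transcripts higher at that limit. The median log2 difference was 0.24, against 0.01 over all tested transcripts. Members that missed the call include Tcf7l2 (0.44 ± 0.12, adjusted p = 0.0578) and Bcas1 (0.31 ± 0.11, adjusted p = 0.136). The 10 became 2 with VEH 7 kept (median 0.11) and 5 with the ribosomal RNA share in the model (median 0.20). Among precursor markers 6 of 13 transcripts were higher and 1 was lower at the unadjusted limit, with none called, and the pan-lineage factor Olig2 differed by 0.11 ± 0.064 (adjusted p = 0.374). Markers of mature myelin did not share a direction. Besides Plxnb3 and Myrf none of 30 transcripts was called, 6 being higher and 3 lower at the unadjusted limit. Opalin, a late myelin protein, was too low for the test, at 0.98 to 17.7 normalized counts in PB (median 3.94), 4.46 to 30.9 in VEH (median 12.1) and 9.89 to 46.8 in LEV animals (median 28.5).

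**Figure D2:**
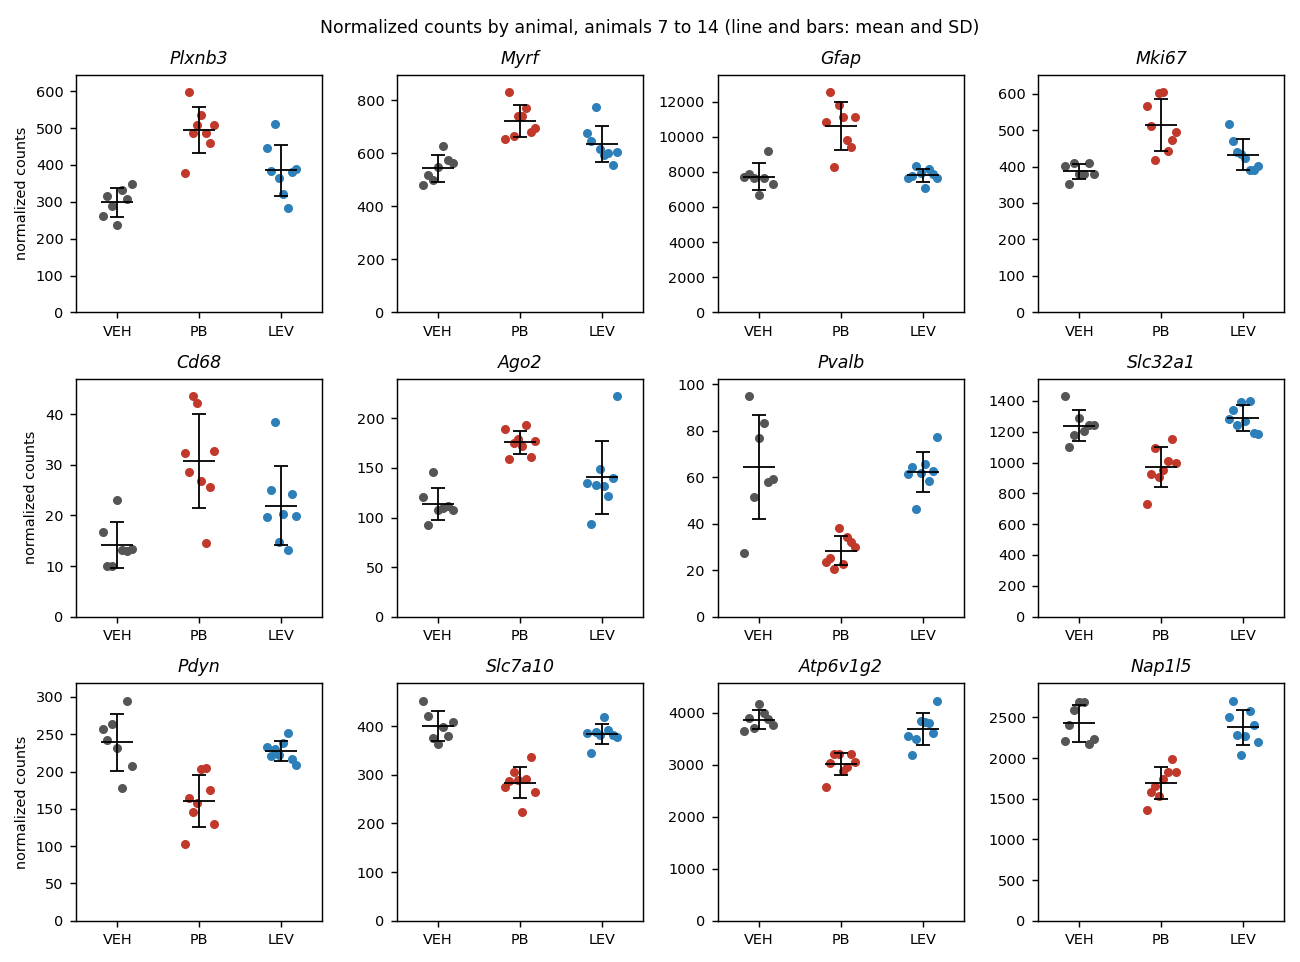
Normalized counts of 12 called transcripts in VEH, PB and LEV animals 7 to 14, with 1 point per animal and lines for the mean and SD. Each panel starts at 0. Plxnb3, Myrf, Ago2, Mki67, Slc7a10, Atp6v1g2 and Nap1l5 show no overlap of PB with VEH, while the PB and VEH points of Pvalb, Cd68, Gfap, Slc32a1 and Pdyn overlap.

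Of all lists examined, that of mitosis held the most called transcripts. The lists were chosen with earlier results of these data known, so this rank is a description only. Of 39 transcripts of 38 mitosis genes tested, 12 were called (30.8%), all higher after PB, and 24 had an unadjusted p under 0.05, again all higher. In 37 of the 39 the PB mean was the higher, and their median log2 difference was 0.39. Mki67, which encodes the proliferation antigen Ki-67, stood at 417 to 604 (median 503) normalized counts in PB and 351 to 410.3 (median 379) in VEH animals. The lowest PB animal was just above the highest VEH animal, and the log2 difference was 0.41 ± 0.078 (adjusted p = 0.0154). Aspm, which organizes spindle poles in neural progenitors, rose from a median of 169.9 (140.4 to 203) to a median of 237 (217 to 326), again without overlap (0.53 ± 0.10, adjusted p = 0.0186). Cenpf, a kinetochore protein, was at 176 to 339 (median 248) in PB and 133 to 177 (median 159.9) in VEH animals, where only the lowest PB animal fell within the VEH range. Its log2 difference was 0.62 ± 0.13 (adjusted p = 0.0276). Kif11, the motor that pushes spindle poles apart, rose by 0.46 ± 0.10 (adjusted p = 0.0243), and Plk1, a kinase that drives mitotic entry, by 0.52 ± 0.12 (adjusted p = 0.0343). Top2a, which untangles sister chromatids, was at the edge of the limit (0.48 ± 0.13, adjusted p = 0.0498). The other called members were Hjurp (0.69), Ckap2 (0.58), Kif20b (0.56), Ska2 (0.50), Prc1 (0.46) and Hmmr (0.40), all with overlapping groups. Members that did not pass include Cdk1, the central mitotic kinase (0.33 ± 0.14, adjusted p = 0.186), and Aurka (-0.10 ± 0.10, adjusted p = 0.635).

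Outside the list, the called transcripts Knstrn, Kif18b, Espl1 and Troap also encode spindle or chromosome-separation proteins. Knstrn differed by 0.92 ± 0.20 (adjusted p = 0.0307) and Kif18b by 0.75 ± 0.15 (adjusted p = 0.0221). These names were read from the calls after the values were seen. Genes of DNA replication had no call. Of 30 S phase transcripts 5 were higher and 2 lower at the unadjusted limit, and the smallest p was that of Mcm10 (0.56 ± 0.17, adjusted p = 0.0871). Cdkn1c, an imprinted inhibitor of cell division, rose by 0.56 ± 0.12 (adjusted p = 0.0311), and Sox11, a factor of newborn neurons, by 0.46 ± 0.10 (adjusted p = 0.0304). Sox11 was the 1 call among 18 transcripts of immature neurons, of which 4 were higher and 2 lower at the unadjusted limit, with a median log2 difference of 0.07. The number of mitosis calls depended on which animals were included. The 12 became 1 without VEH 13, 2 without PB 11, 3 without VEH 11 or PB 10, 5 without VEH 12 or PB 14, 6 without PB 9 and 7 without VEH 14. The count at the unadjusted limit stayed between 21 and 26 under these omissions. It was 23 with VEH 7 kept and 14 with the ribosomal RNA share in the model, with no call in either and with medians of 0.39 and 0.40. Without the ribosomal RNA transcripts 11 were called.

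**Figure D3:**
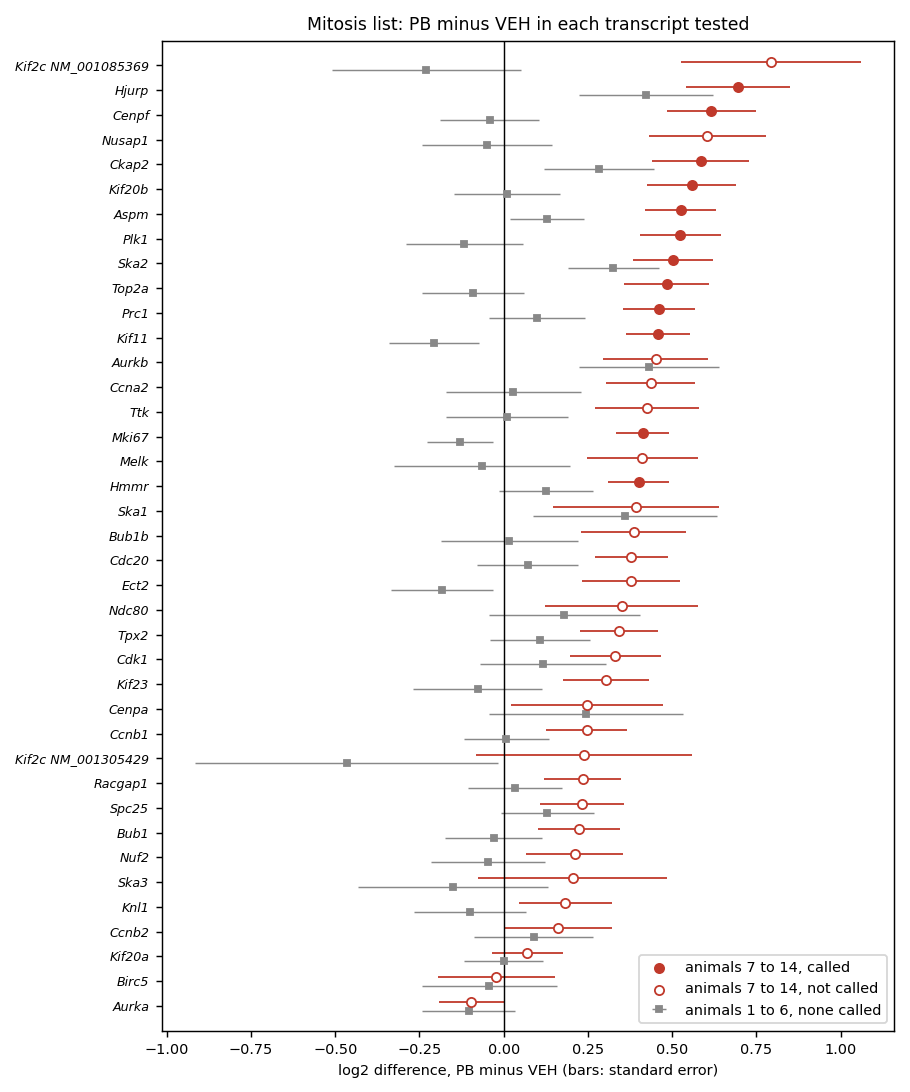
Log2 difference of PB minus VEH for each transcript of the mitosis list, with bars for the standard error. Red circles stand for animals 7 to 14, filled where called (12 of 39), and grey squares for animals 1 to 6, where none was called. Most red circles lie right of 0, while the grey squares scatter about it (medians 0.39 and 0.01).

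Promoters of mitotic genes are known to hold CCAAT boxes and, close to the start of transcription, the cell cycle element TTTGAA that represses them outside division. Both were searched on both strands in the 250 bases before the start in RefSeq's table of rat promoters (GRCr8, a later build than the rn6 of the counts). All 12 called mitosis genes had a promoter there, 7 of which held TTTGAA or its reverse complement (58.3%) and 11 CCAAT (91.7%). Over the whole mitosis list 16 of 34 promoters held TTTGAA (47.1%) and 24 of 34 CCAAT (70.6%), and of called higher genes off the list 6 of 48 (12.5%) and 19 of 48 (39.6%). Over all genes tested, 9482 had a promoter, 10.2% of them with TTTGAA and 35.7% with CCAAT. Of all 33469 promoters in the table, 16.2% and 34.0% held them. The called lower genes had 1 of 30 with TTTGAA and 14 of 30 with CCAAT, and the S phase genes 2 of 23 and 14 of 23. A match describes the letters only. The 3 sequences below are those of called genes with TTTGAA within 25 bases of the start. Capitals mark TTTGAA (reverse complement TTCAAA) or CCAAT (reverse complement ATTGG), and each runs 5′ to 3′ on the gene's strand up to the base before the start.
Aspm (chr13:53625334-53625583, plus strand): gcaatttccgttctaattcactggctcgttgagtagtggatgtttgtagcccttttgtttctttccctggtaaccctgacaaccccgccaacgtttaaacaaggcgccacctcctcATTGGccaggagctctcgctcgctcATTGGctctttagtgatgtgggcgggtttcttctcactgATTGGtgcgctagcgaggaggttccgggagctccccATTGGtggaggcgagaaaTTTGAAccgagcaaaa
Top2a (chr10:84473094-84473343, minus strand): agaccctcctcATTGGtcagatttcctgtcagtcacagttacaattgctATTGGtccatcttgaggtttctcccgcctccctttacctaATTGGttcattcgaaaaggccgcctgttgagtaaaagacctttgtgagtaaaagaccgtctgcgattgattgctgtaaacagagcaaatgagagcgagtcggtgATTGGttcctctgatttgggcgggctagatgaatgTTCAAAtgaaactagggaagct
Prc1 (chr1:143659231-143659480, plus strand): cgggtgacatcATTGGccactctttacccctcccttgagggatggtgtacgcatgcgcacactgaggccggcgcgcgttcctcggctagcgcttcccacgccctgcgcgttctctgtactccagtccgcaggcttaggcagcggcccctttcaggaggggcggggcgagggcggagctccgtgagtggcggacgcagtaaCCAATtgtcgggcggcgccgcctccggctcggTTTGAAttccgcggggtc
Aspm and Top2a each held 4 CCAAT matches and Prc1 held 2, and each held 1 TTTGAA match, starting 16, 22 and 18 bases before the start.

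Of the markers of inhibitory neurons Pvalb and Slc32a1 fell after PB. The largest fall among the listed genes was that of Pvalb, which encodes the calcium buffer parvalbumin of fast-spiking interneurons. It was at 20.3 to 37.9 (median 27.5) normalized counts in PB, 27.4 to 94.7 (median 59.1) in VEH and 46.4 to 77.4 (median 62.1) in LEV animals. All PB animals lay below the VEH mean, and only the lowest VEH animal, VEH 8, lay within the PB range. The log2 difference was -1.18 ± 0.22 (adjusted p = 0.0154). Slc32a1, the transporter that loads GABA into vesicles, was at 731 to 1152 (median 975) in PB, 1098 to 1429.6 (median 1241) in VEH and 1186 to 1399.6 (median 1279) in LEV animals. Its groups overlapped only in VEH 9, which lay below the highest PB animal, with a log2 difference of -0.35 ± 0.077 (adjusted p = 0.0311). Pdyn, the precursor of the opioid peptide dynorphin, which dentate granule cells also make, was counted with the peptides and fell by 0.57 ± 0.13 (adjusted p = 0.0353) on the log2 scale, from a median of 242 (179 to 295) to a median of 161 (103 to 204).

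Of 8 transcripts of GABA synthesis and transport, 1 was called and 5 had an unadjusted p under 0.05, all lower, where 9.54% of all tested transcripts were lower at that limit. Gad1, the GABA-making enzyme, did not pass (-0.21 ± 0.076, adjusted p = 0.146), and Gad2 differed by -0.04 ± 0.091 (adjusted p = 0.858). Among 13 peptide transcripts 1 was called and 7 were lower at the unadjusted limit, none being higher, with a median log2 difference of -0.26. They include Sst (-0.43 ± 0.12, adjusted p = 0.0578) and Npy (-0.26 ± 0.10, adjusted p = 0.146, listed as 2 entries with equal values), which did not pass. The calcium-binding protein Calb2 differed in the other direction (0.33 ± 0.13, adjusted p = 0.181) and Calb1 by -0.06, neither passing. Of 87 transcripts on the study's own list of GABA neuron genes, 4 were called lower and 1 higher (5.75%, against 0.834% of all tested). At the unadjusted limit 28 were lower and 2 higher. Neither GABA receptor subunits (16 transcripts) nor interneuron transcription factors (11) had a call, the smallest p values being those of Gabrr2 (-0.69 ± 0.21, adjusted p = 0.075) and Sox6 (0.32 ± 0.12, adjusted p = 0.162). With VEH 7 kept, the peptide count at the unadjusted limit was 2 in place of 7 (median -0.17), and it was 3 with the ribosomal RNA share in the model (median -0.37).

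Proteins of the presynaptic terminal split by member. Syn1, which tethers synaptic vesicles, fell from a median of 4208 (3903 to 4559.5) in VEH to a median of 3286 (2527 to 3829.7) normalized counts in PB animals, without overlap (-0.38 ± 0.076, adjusted p = 0.0186). Vamp1, the vesicle fusion protein of fast synapses, differed by -0.40 ± 0.08 (adjusted p = 0.0186). Syn3, by contrast, rose by 0.47 ± 0.10 (adjusted p = 0.0314), with 1 PB animal, PB 9, far above the rest at 358 normalized counts. Of 33 transcripts of vesicle release 11 were lower and 5 higher at the unadjusted limit. Syp, Cplx1 and Rab3a passed the adjusted limit below the fold limit, at -0.27, -0.31 and -0.32. Pclo, the giant scaffold of the active zone, rose by 0.55 ± 0.10 (adjusted p = 0.0144), and the files divide its reads between 2 transcripts. Grin3a, a juvenile NMDA receptor subunit that declines as synapses mature, rose by 0.77 ± 0.18 (adjusted p = 0.0359).

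Other neuronal transcripts also fell. Nefh, the heavy neurofilament of mature axons, differed by -0.45 ± 0.11 (adjusted p = 0.0436), Kcng4, a modifier subunit of potassium channels, by -0.57 ± 0.13 (adjusted p = 0.0315), and Hpca, the calcium sensor hippocalcin of pyramidal cells, by -0.41 ± 0.091 (adjusted p = 0.0314). Hpca was the 1 call among 21 markers of hippocampal subfields, of which 4 were lower and 1 higher at the unadjusted limit. Rgs14, a marker of CA2, passed the adjusted limit just below the fold limit (-0.32 ± 0.07, adjusted p = 0.0304). Atp6v1g2, a subunit of the proton pump that acidifies synaptic vesicles, had the second smallest p. It was at 2569 to 3215 (median 3048) in PB and 3652 to 4160.2 (median 3878) in VEH animals, without overlap (-0.35 ± 0.046, adjusted p = 0.00254). Nap1l5, an imprinted gene of neurons, fell from a median of 2407 (2168 to 2688) to a median of 1701 (1362 to 1992), again without overlap (-0.52 ± 0.073, adjusted p = 0.0041). Ndrg4 fell by 0.49 ± 0.084 (adjusted p = 0.00897), its reads being divided among 6 listed transcripts. Among sodium channels the accessory subunit Scn3b passed the adjusted limit only (-0.26 ± 0.057, adjusted p = 0.0314). Calcium and HCN channels had no call, but 8 of 27 transcripts were higher and 1 lower at the unadjusted limit, with Cacna1i, a T-type channel, at 0.29 ± 0.067 (adjusted p = 0.035). This count was 2 with VEH 7 kept and 1 with the ribosomal RNA share in the model. Npas4, an activity-induced transcription factor, was higher after PB (0.72 ± 0.17, adjusted p = 0.033). Its level was 43.6 to 91.6 (median 56.2) in PB, 30.05 to 42.3 (median 38.4) in VEH and 51.2 to 117 (median 77.6) in LEV animals, so that PB did not overlap VEH. It was the 1 call among 26 immediate early transcripts, of which 5 were higher and 1 lower at the unadjusted limit.

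Transcripts known from astrocytes were called in both directions. Gfap, the intermediate filament of astrocytes, rose from a median of 7674 (6681 to 9193) in VEH to a median of 10979 (8293 to 12544) in PB animals and stood at 7110.0 to 8312 (median 7826) in LEV animals. Only the highest VEH animal reached into the PB range, and the log2 difference was 0.46 ± 0.079 (adjusted p = 0.00897). Vim, a filament of immature astrocytes, rose by 0.34 ± 0.081 (adjusted p = 0.0379). Slc7a10, an astrocyte transporter of small neutral amino acids, fell from a median of 399 (364 to 452) to a median of 288 (224 to 336) without overlap (-0.49 ± 0.074, adjusted p = 0.00492), and it was the 1 transcript still called with VEH 7 kept. Of 420 tested transcripts on the study's own astrocyte list 4 were called higher and 4 lower (1.9%). Of 103 on its oligodendrocyte list 1 was called higher (0.971%), where 0.834% of all tested were called. Of 44 astrocyte transcripts chosen here 5 were higher (11.4%) and 9 lower (20.5%) at the unadjusted limit, against 9.22% and 9.54% of all tested. Aldoc, an astrocyte glycolytic enzyme, passed the adjusted limit only (-0.25 ± 0.057, adjusted p = 0.033), and Pygm, which breaks down glycogen, was called at -0.47 ± 0.082 (adjusted p = 0.0113).

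Among microglial genes Cd68, a lysosomal protein of phagocytes, rose most of all called transcripts. Its level was 14.6 to 43.6 (median 30.5) in PB, 10.03 to 23.02 (median 13.1) in VEH and 13.2 to 38.5 (median 20.04) in LEV animals. All PB animals lay above the VEH mean, although 2 VEH animals reached into the PB range, and the log2 difference was 1.11 ± 0.24 (adjusted p = 0.0298). It was the only call among 41 transcripts of the microglia list, of which 3 were higher and 2 lower at the unadjusted limit, and Aif1 (Iba1) differed by -0.17 ± 0.09 (adjusted p = 0.32). Cd4 (0.56 ± 0.12, adjusted p = 0.0304) and Adgre1, the F4/80 antigen of macrophages (0.62 ± 0.15, adjusted p = 0.0422), were also called higher and were picked out after their values were seen. The summed level of the microglia list was 9314 to 10326 in PB and 9316 to 10635 in VEH animals. Of 249 transcripts on the study's microglia list 4 were called (1.61%, against 0.834% of all tested), all higher. Complement and antigen presentation genes had no call, with 6 of 22 higher and none lower at the unadjusted limit.

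The endothelial transcripts Itm2a (-0.39 ± 0.084, adjusted p = 0.0304) and Tfrc, the transferrin receptor of brain capillaries (-0.34 ± 0.087, adjusted p = 0.0494), fell, and of 27 on that list 4 were lower and none higher at the unadjusted limit. Some matrix genes rose. Col11a1 (0.58 ± 0.14, adjusted p = 0.0426) and Col16a1 (0.34 ± 0.088, adjusted p = 0.0496) were called higher among 35 collagen and laminin transcripts, and 6 were higher at the unadjusted limit with none lower. When 1 of the 15 animals was left out, Col11a1 stayed called in 4 of 15 fits and Col16a1 in 2. Fibroblasts of the meninges make some of these collagens, and the summed level of the meninges list was 6011 to 10441 in PB and 5051 to 11552 in VEH animals. Its part in the result was not tested. Igfbp5, a binder of insulin-like growth factors, rose by 0.48 ± 0.12 (adjusted p = 0.0405). Vegfa, the vascular growth factor, is listed as 13 tested transcripts, several with equal values. None was called in the fit reported here, while NR_105011 was called with the ribosomal RNA share in the model and by DESeq2 without outlier handling, and NM_001287113 with all 41 animals in the model. Their log2 differences ran from 0.03 to 1.16. The most abundant of them, NM_001110336, was at 645 to 1007 (median 835) in PB and 595 to 864 (median 757) in VEH animals (0.15 ± 0.094, adjusted p = 0.411).

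Transcripts of energy metabolism differed by small amounts. Of 82 transcripts of the respiratory chain 1 was called, Atp5mc3, a subunit of ATP synthase (-0.44 ± 0.10, adjusted p = 0.0314). But 30 were lower and none higher at the unadjusted limit, and the median log2 difference was -0.12. Proteasome subunits had no call, with 13 of 38 lower and none higher, and a median of -0.08. These counts ran from 20 to 42 and from 9 to 16 when single animals were left out, and were 11 and 5 with the ribosomal RNA share in the model (medians -0.14 and -0.09) and 10 and 2 with VEH 7 kept (medians -0.08 and -0.07). Of all called transcripts, those higher had a median genomic span of 29780 bases and those lower of 8469, against 21013 over all tested. With the trend of level with span taken out of each library, 114 transcripts were called, 93 of them among the 107, and the respiratory chain and proteasome counts were 24 and 13. Entries for ribosomal RNA were themselves among the calls. Rn28s differed by -0.88 ± 0.17 (adjusted p = 0.017), Rn18s by -0.63 ± 0.13 (adjusted p = 0.0186), and LOC257642, annotated as a binder of the ribosomal RNA promoter, by -1.18 ± 0.19 (adjusted p = 0.00661).

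Several calls with small p values belonged to none of the lists. Ago2, the slicing protein of RNA silencing, rose from a median of 109 (92.5 to 146) in VEH to a median of 176 (159 to 193) in PB animals without overlap (0.63 ± 0.089, adjusted p = 0.0041), while LEV animals spread from 93.7 to 222. Prdm11, of a family of chromatin factors, rose from a median of 104 (75.8 to 117) to a median of 149 (142 to 171) (0.58 ± 0.091, adjusted p = 0.00493), and Trim67, a ubiquitin ligase of neurons, from a median of 224 (212 to 280.1) to a median of 350.2 (286 to 437) (0.58 ± 0.094, adjusted p = 0.00661), each without overlap. Cygb, the oxygen-binding cytoglobin, fell from a median of 291 (279.6 to 323) to a median of 220.0 (195 to 248) without overlap (-0.43 ± 0.065, adjusted p = 0.00492). Further large rises were those of Calr3 (0.90), Acacb (0.84), Lrrc9 (0.83) and Nemp1 (0.83), all in transcripts with at most 57.2 normalized counts in any PB animal. Further large falls were those of Nfe2l1 (-0.83), a transcription factor that controls proteasome genes, Tmem215 (-0.67) and Kcne5 (-0.60). The Nfe2l1 value is that of 1 of 3 listed transcripts. Of the 107 calls, 13 were of genes listed as more than 1 transcript, among them Nfe2l1, Cdkn1c, Syn1, Grin3a and Atp5mc3. The division of reads between such transcripts is estimated.

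**Figure D4:**
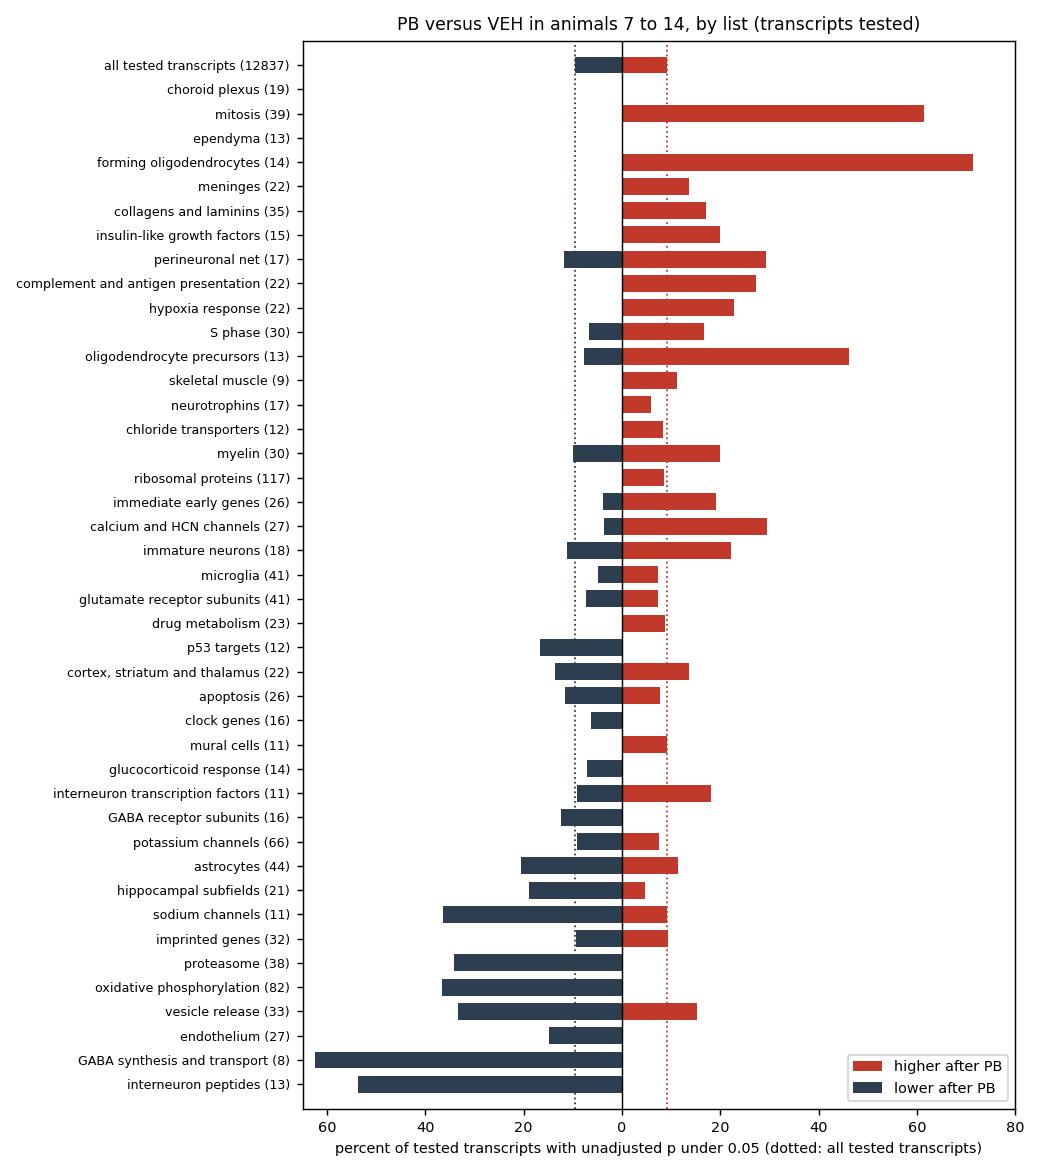
Percent of the tested transcripts of each list with an unadjusted p under 0.05, higher after PB to the right and lower to the left, for lists with at least 8 tested transcripts (their number in brackets), in order of their median log2 difference. Dotted lines mark all tested transcripts (9.22% higher, 9.54% lower). Forming oligodendrocytes and mitosis extend farthest to the right, and GABA synthesis and transport and interneuron peptides farthest to the left.

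Several further lists had no call. These were apoptosis (26 transcripts), p53 targets (12), the glucocorticoid response (14), clock genes (16), chloride transporters (12), drug metabolism (23), neurotrophins (17) and ribosomal proteins (117). Their smallest p values belonged to Cycs (-0.19), Ccng1 (-0.15), Ddit4 (-0.25), Tef (-0.18), Wnk2 (0.12), Fmo1 (0.25), Ntrk2 (0.15) and Rps23 (0.20), where the numbers are log2 differences. Of these Ddit4 alone passed the adjusted limit, below the fold limit. Ribosomal proteins were higher at the unadjusted limit in 10 of 117 transcripts (8.55%, against 9.22% of all tested) and lower in none. In animals 1 to 6, described next, 60 of 117 were higher, against 541 of all 12837. Red blood cells, mural cells, ependyma, choroid plexus, meninges, skeletal muscle, neighbouring brain regions and Y-linked genes had no call either, nor had perineuronal net genes, of whose 17 transcripts 5 were higher and 2 lower at the unadjusted limit. Their smallest p values belonged to Hbb-b1 (-0.62), Myh11 (0.52), Zmynd10 (0.30), Sulf1 (0.77), Col6a2 (0.21), Myh3 (0.80), Prkcd (0.37), Eif2s3y (-0.08) and Tnc (0.38), none of which passed, with log2 differences in brackets. The same holds for C1ql1 (-0.30) of the precursor list, C2 (0.49) of the complement list and Psma1 (-0.18) of the proteasome. The sign of the differences of Wnk2, Eif2s3y and Hbb-b1 turned under other settings. Choroid plexus transcripts had a median log2 difference of 0.55 but none with an unadjusted p under 0.05, and with their summed level in the model 95 transcripts were called, 72 of them among the 107. The summed level itself passed the adjusted limit for 196 transcripts.

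The remaining question was whether the same transcripts differed in the other PB and VEH animals, numbered 1 to 6. These were fitted together with animals 7 to 14 in 1 model of 27 animals, in which the effect of PB was estimated in each set. Of the 107 transcripts 76 had the same direction in animals 1 to 6, against 56.5% of all tested, and 21 had both the same direction and an unadjusted p under 0.05, against 6.22%. The lower transcripts kept their direction in 32 of 37 cases and the higher ones in 44 of 70. Those called higher had a median log2 difference of 0.48 in the first set and 0.06 in the second, and those called lower of -0.41 and -0.17. Since the transcripts were called in animals 7 to 14, their larger size there is partly fixed by the choice. Cd68 differed by 0.83 ± 0.26 in animals 1 to 6, Cd4 by 0.54 ± 0.20, Ndrg4 by -0.41 ± 0.12, Plxnb3 by 0.34 ± 0.15 and Pvalb by -0.45 ± 0.36. Mki67 differed by -0.13 ± 0.10 and Gfap by 0.15 ± 0.10. Over the mitosis list the median in animals 1 to 6 was 0.01. At the unadjusted limit 3 transcripts of 39 were higher and none lower, against 541 and 620 of all 12837. Of forming oligodendrocytes none of 14 was higher and 1 was lower (median 0.10). Of the precursor list none of 13 was higher and 2 were lower (median -0.11). GABA synthesis and transport had 4 of 8 lower and none higher, and interneuron peptides 2 of 13 lower and none higher. Vesicle release had 11 of 33 lower and 1 higher, and the study's GABA neuron list 16 of 87 lower and 1 higher.

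The difference between the 2 effects was tested directly. Of the 107, 61 had an unadjusted p under 0.05 for it, where 10.5% of all tested did, and 2 passed the adjusted limit, Prdm11 and Pclo. The count of 61 is a description, since the choice of the 107 in animals 7 to 14 favours a larger effect there, as 105 of them had. Over all 13190 transcripts in that model 9 were called for it (0.0682%), and 7 for PB against VEH in animals 1 to 6. None of the 9 was on the mitosis list, of which 10 of 39 transcripts had an unadjusted p under 0.05. Gpr17, of the list of forming oligodendrocytes, differed by 0.22 ± 0.069 in animals 7 to 14 and by -0.32 ± 0.078 in animals 1 to 6. Pcdh15, of the precursor list, differed by 0.29 ± 0.10 and -0.46 ± 0.11. Mib1, a ubiquitin ligase that activates Notch ligands, differed by 0.31 ± 0.055 in animals 7 to 14 and by -0.19 ± 0.06 in animals 1 to 6. Arrb1, which encodes beta-arrestin-1, differed by 0.28 ± 0.06 and -0.23 ± 0.067. Prdm11 stood at 142 to 171 normalized counts in PB and 75.8 to 117 in VEH animals 7 to 14, but at 106 to 164 and 124 to 168 in animals 1 to 6. Pclo differed by 0.54 ± 0.13 and -0.48 ± 0.15. Atp2a1 and Myh4, both of skeletal muscle, were at 37.2 to 71.5 and 33.1 to 73.3 normalized counts in VEH animals 1 to 6 and at no more than 10.6 in every other PB or VEH library of the 27. Of those 6 VEH libraries VEH 1 summed to 4.14 normalized counts over the Y-linked genes, against at least 1367 in each PB or VEH animal 7 to 14, although the labels call all animals male. Without it, 5 transcripts were called for the difference and 5 in animals 1 to 6. Ribosomal RNA took 3.79% to 12.7% of the counts in PB and 2.75% to 8.54% in VEH animals 1 to 6. The lower share after PB was thus not seen there. In those animals Rn28s differed by 0.23 ± 0.31, Rn18s by 0.16 ± 0.15 and LOC257642 by 0.20 ± 0.29.

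**Figure D5:**
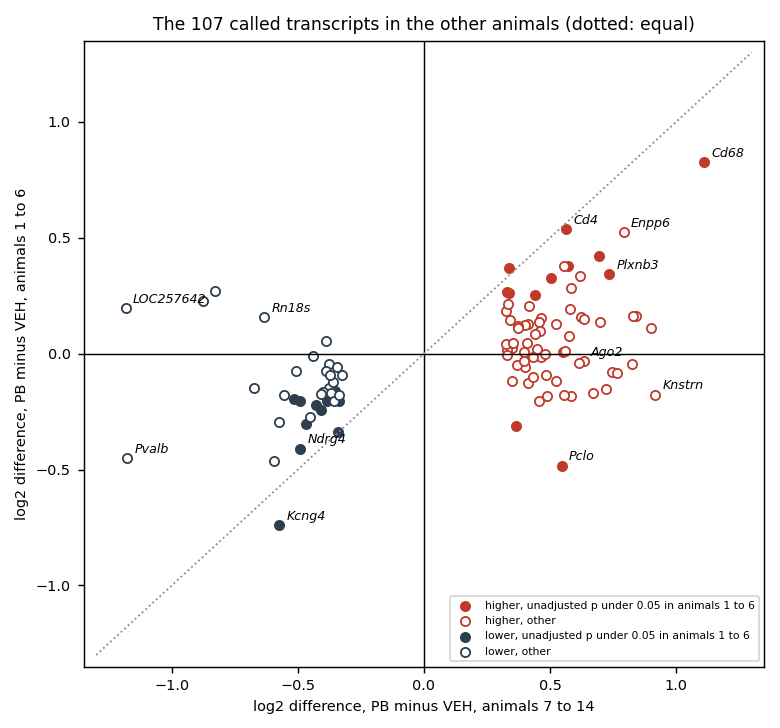
Log2 difference of PB minus VEH for the 107 called transcripts in animals 7 to 14 (horizontal) and animals 1 to 6 (vertical), with red for those higher and dark blue for those lower in animals 7 to 14. Filled points have an unadjusted p under 0.05 in animals 1 to 6, and the dotted line marks equal differences. Those called lower lie mostly below 0 on the vertical axis (32 of 37), while those called higher lie on both sides (44 of 70 above).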

How the data were processed

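RNA from the hippocampus of 42 pups was sequenced. Alignment by the authors was to rn6 with STAR 2.7.3a, and they deposited estimated counts per RefSeq transcript from Partek's expectation-maximization step. These were rounded to whole numbers. The deposited table of the authors' own comparisons (fold changes, p-values and group means) was not used.

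PB and VEH animals 7 to 14 were compared with edgeR 4.0.16 (R 4.3.3, limma 3.58.1), with TMM scaling, its filter on low counts and the quasi-likelihood test, and with Benjamini-Hochberg adjustment over all transcripts tested. A call needs an adjusted p of 0.05 and a log2 difference of 0.32. Levels are normalized counts, and log2 differences are PB minus VEH with their standard error (SE). Depth is given with the results, and transcripts with low counts are the least precise. DESeq2 1.42.0 and the settings in the closing section were alternatives. The model was tested on simulated data.

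The sample codes come in 2 forms. The labels do not say whether they mark the 2 orders of animals. Whether shared animal numbers mark litters could not be decided by the check described in the closing section, and the reported fit does not pair the animals. The genes named are the called transcripts with the smallest p, the largest rises and falls, the called members of the gene lists (or the member with the smallest p), the genes the study measured by PCR, and the largest differences between animals 7 to 14 and 1 to 6. Others, such as Nefh, Pygm, Aldoc, Rgs14, Cd4, Adgre1, Kif18b, Espl1, Troap and list members that did not pass, were picked after their values were seen. Members and lists were chosen with earlier results of these data known. Motifs were searched in RefSeq's rat promoters (GRCr8).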

Additional observations from a re-analysis of the deposited data

Results flagged for a closer look

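In 6 of 144 groups of values examined, 1 animal lay far from the rest of its group by Dixon's criterion, where chance flags about 1 group in 20. Syn3 was at 358 normalized counts in PB 9, against 214 to 264 in the other PB animals. Nemp1 was at 22.6 in VEH 12, against 12.4 to 16.7. Gad1 was at 1480.0 in VEH 9, against 2040 to 2210. Vegfa NR_105011 was at 33.2 in VEH 10, against 7.63 to 16.7, and Vegfa NM_001287112 and NM_001287111, with equal values, at 37.9 in VEH 9, against 3.84 to 16.7.

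The effect of PB differed between animals 7 to 14 and animals 1 to 6 for 9 transcripts, by edgeR's test of the difference. The difference of the 2 log2 effects was 4.40 for Atp2a1, 3.25 for Myh4, 1.03 for Pclo, 0.759 for Prdm11, 0.745 for Pcdh15, 0.542 for Gpr17, 0.505 for Arrb1, 0.498 for Mib1 and 0.409 for Gpam. VEH animal 7, excluded by its label and in no comparison, had ribosomal RNA at 6.5% of its counts, against 1.44% to 2.45% in the other VEH animals of its series.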

How the results depend on the processing

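The direction of the 54 called transcripts named by the rule in the methods did not turn under any of the 32 alternatives. Of these 1702 values 517 lost the call. The unchanged direction was partly fixed in advance. Settings that change only the fold or adjusted p limit reuse the reported values, and every other setting includes animals in which the transcripts were called. DESeq2's defaults gave no adjusted p for 15 of the 54, Pvalb and Cd68 among them, and these values were not counted. The count of calls between PB and VEH in animals 7 to 14 (107) was 203 with DESeq2 without outlier handling (159 with its defaults, 82 of them shared), 319 without a fold limit, 26 at a fold of 1.5, 13 at an adjusted p of 0.01, 196 with all 41 animals in the model, 168 with the LEV animals in the fit, and 1 with the excluded VEH animal kept or with the ribosomal RNA share in the model. It ran from 33 to 142 when 1 animal was left out. In animals 1 to 6 the 7 calls became 11 with DESeq2's defaults or without the filter on low counts, 18 with DESeq2 without outlier handling, 4 with VEH 7 kept and 3 at an adjusted p of 0.01, and 3 to 10 when 1 animal was left out. For the difference between the 2 sets the 9 became 39 with either DESeq2 setting, 1 with VEH 7 kept, 5 at a fold of 1.5 and 2 at an adjusted p of 0.01, and 4 to 31 when 1 animal was left out. The cause was not tested.

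The same animal numbers deviated together only in part (correlations -0.09 to 0.34 for numbers 8 to 14). Animals of unlike number were not compared, so this cannot decide whether the numbers mark litters. With the replicate number as a block, 28 transcripts were called in animals 7 to 14 and 3 in animals 1 to 6, and 7 for the difference. Pvalb and Cd68 were not called with the block.

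The p for the second principal component ran from 0.002 to 0.102 when 1 animal was left out and passed its adjusted limit without VEH 9, VEH 10, PB 7 or PB 13, by the exact permutation test. That for the third component ran from 0.0309 to 0.870, passing without PB 7. Log2 differences of transcripts that were not called turned in sign with VEH 7 kept, to -0.083 for Wnk2 and 0.089 for Eif2s3y, and with the ribosomal RNA share in the model, to -0.18 for Vegfa NM_001287110 and NM_001110334 and -0.54 for Vegfa NM_001110335. When 1 animal was left out they ran from -1.005 to 0.0113 for Hbb-b1, -0.018 to 0.099 for Vegfa NM_001287110 and NM_001110334, and -0.084 to 0.19 for Vegfa NM_001110335. Depth limits transcripts with low counts, such as Pvalb, Cd68 and Opalin.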
